A study of Mus musculus with 4 samples.

Results

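Mouse embryonic fibroblasts that expressed Osr2 were compared with fibroblasts that expressed Kusabira Orange, with both cultures in the TGF-β receptor inhibitor SB431542 on day 5 of reprogramming. The comparison rests on 1 poly(A) RNA-seq library of each kind, out of 4 libraries in the series. Its members are the 13010 of 26809 table entries that reached at least 1 TPM (the deposited unit, read counts scaled for transcript length and library) in either of these libraries. The lowest member had 1.00007 TPM in its higher library and the entry just below the limit had 0.999187 TPM.

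The Osr2 cells were C57BL/6 embryonic fibroblasts that carried Osr2 as a transgene together with SeVdp(KOSMaB), a Sendai virus vector with Klf4, Pou5f1 (Oct4), Sox2 and Myc, and were kept in 10 µM SB431542. The control cells had the same strain, vector and SB431542 dose, with the fluorescent protein Kusabira Orange in place of Osr2. Both cultures had been selected with blasticidin S, so the reprogramming vector, the selection and the inhibitor are shared, and the promoter of the transgene is not given in the sources used here. Below, "Osr2 cells" and "control cells" are the cells with SB431542 unless the text says otherwise.

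TGF-β, activin and nodal bind receptor pairs whose type I kinase phosphorylates Smad2 and Smad3, which then join Smad4 and switch on matrix, contractile and feedback genes. SB431542 blocks these type I kinases and leaves the BMP type I receptors, which signal through Smad1, Smad5 and Smad9, largely free. In fibroblast reprogramming the mesenchymal program has to be lost before epithelial and pluripotency genes come up, and TGF-β receptor inhibitors are used to help that step. Osr2 is a zinc-finger transcription factor of the odd-skipped family, known from palate, limb and kidney development.

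The libraries were very unequal in depth and make-up. Whole reads could be recovered from the TPM values and came to 1629444 in Osr2 cells and 13131278 in control cells. Genes of the mitochondrial genome held 15.3% of the reads in Osr2 cells and 0.706% in control cells, and the 20 entries with most reads held 21.2% in Osr2 cells and 5.93% in control cells. The deposited TPM values sum to 96038 in Osr2 cells and 452145 in control cells and so fall short of the usual common total. Between the libraries the median gene was shifted by −3.51 on the log2 scale, an 11.4-fold lower deposited TPM in Osr2 cells. Every difference below is therefore the difference of log2(TPM + 1), Osr2 minus control, after each library was set to its median gene. There were no replicates, so no test was made, and a gene is called higher or lower in Osr2 cells when its difference is at least 1 in size. A fold is a gene's read ratio over that of the median gene, and its bracketed range is the exact 95% counting interval, which covers counting error only.

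By that rule 2588 genes (19.9%) were higher in Osr2 cells, 3768 (29.0%) were lower and 6654 were neither. The counts of every list below stand beside these shares of all measured genes. The median difference of all members was −0.25. These directions are relative to the median gene: on total recovered reads 1179 were higher and 5834 lower and the median was −0.88, and on TPM as deposited 47 were higher and 11900 lower and the median was −2.40. Lists below whose median is above 0 are given with their median on TPM as deposited or on total reads where that turned its sign, and lists with a median below 0 were lower still under both. Among the lower genes 1444 had 0 reads in Osr2 cells, where 1 read in a transcript of 1 kb is worth 1.32 TPM on the relative scale, against 0.0914 TPM in control cells. Of the members, 31 passed through the Osr2 library alone and all 31 counted as higher, while 6764 passed through the control library alone and 3218 of these counted as lower. Weight was given to the 4970 genes with at least 20 TPM in control cells or 5 TPM in Osr2 cells. Of those, 1332 (26.8%) were higher and 1177 (23.7%) lower, but 312 reached that level through the Osr2 library alone and could not have been other than higher. Every gene named below with at least 5 TPM in Osr2 cells and under 20 TPM in control cells belongs to these 312, so its direction was fixed by the limit. The genes next to these limits had 20.0007 and 19.9949 TPM in control cells, and 5.00653 and 4.98903 TPM in Osr2 cells.

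**Figure D1:**
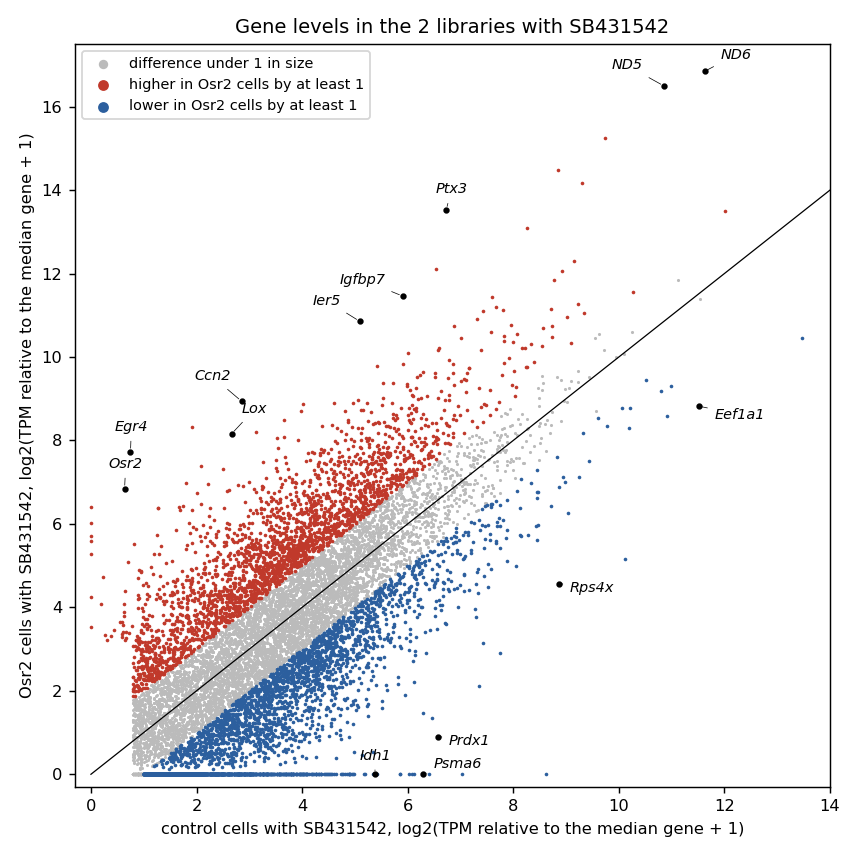
Level of each of the 13010 genes in Osr2 cells (y axis) against control cells (x axis), both as log2(TPM relative to the median gene + 1), 1 library each. The black line marks equal levels, 2588 genes lie at least 1 above it and 3768 at least 1 below it, and the row of points at 0 on the y axis holds the 1811 genes without a read in Osr2 cells.

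The spread around the median gene was wide at every depth. Among 2371 genes for which at least 100 reads were expected in Osr2 cells from the control library, the 10th to 90th percentile of differences ran from −1.67 to 1.72. Of 7634 genes with at least 20 expected reads 63 had 0 reads, so no bound is given on the ratio of a gene at 0 reads.

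Differences followed the base composition of the transcripts. In the decile of genes with the lowest GC content, 33.9% to 42.4%, the median difference was −0.76, with 14.3% higher and 42.3% lower. In the decile with the highest GC content, 58.2% to 69.0%, the median was 0.93, with 46.9% higher and 3.71% lower. Between Osr2 and control cells without SB431542 the medians of these deciles were −0.27 in the lowest and 0.23 in the highest. The columns without SB431542 may hold the treated reads, as described at the end, and after these were subtracted the order turned round, with 0.17 in the lowest and −0.24 in the highest decile. Relative to the median of genes in the same decile, 2604 genes (20.7%) were higher and 2787 (22.2%) lower of 12580 with a GC value, and 2026 of 2541 higher and 2411 of 3499 lower genes stayed so. The part of base composition in single results was not tested, and the value relative to genes of like GC content is given beside the lists below.

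**Figure D2:**
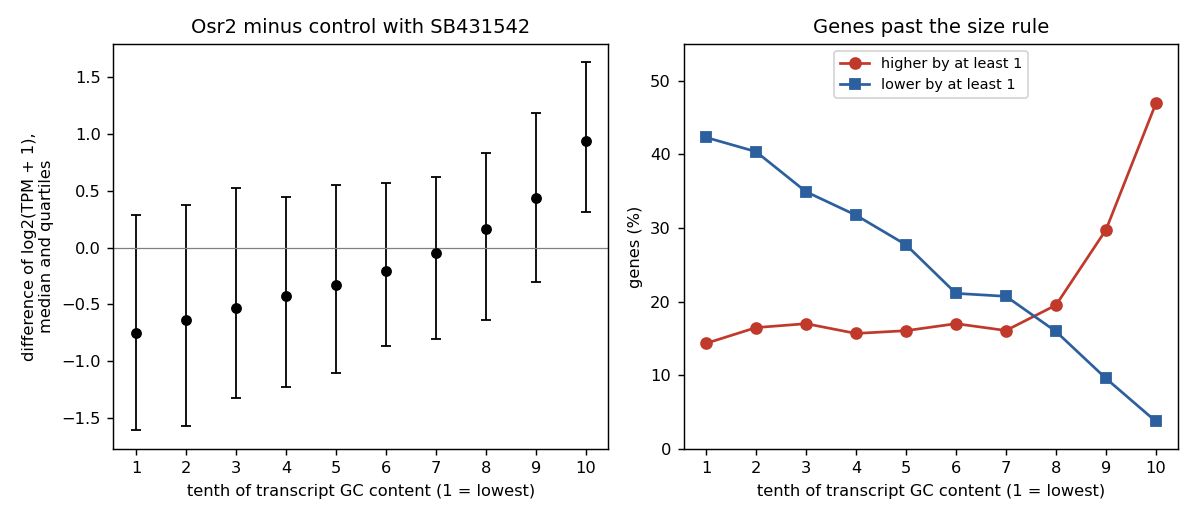
Left, median difference of log2(TPM + 1), Osr2 minus control with SB431542, in deciles of transcript GC content from lowest to highest (bars, quartiles over about 753 genes with at least 20 expected reads). Right, the percentage of those genes higher or lower by at least 1, where the share of higher genes goes up to 46.9% in the highest decile and the share of lower genes is largest, 42.3%, in the lowest decile.

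Genes of the X chromosome stood lowest among the chromosomes. Their median difference was −0.97 over 233 genes with at least 20 expected reads, and 48.5% of them were lower. The medians of the autosomes ran from −0.45 on chromosome 16 to 0.28 on chromosome 17. X-linked genes also had the lowest median GC content, 46.7%, and relative to genes of like GC content their median was −0.57, still below that of every autosome, where it was −0.19 at the lowest. Without SB431542 the X-linked median was −0.33, and 0.013 after the treated reads were subtracted. Xist, the long RNA that coats the inactive X chromosome, had 0.392 TPM (44 reads) in Osr2 cells, against 34.5 TPM (4921 reads) in control cells, a difference of −2.62.

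Osr2 itself (chromosome 15, 35296098 to 35303305, GRCm38.p6) had 13.7 TPM (311 reads) in Osr2 cells, against 0.764 TPM (22 reads) in control cells, the higher level in the cells labelled Osr2. Relative to the median gene its reads were 205-fold higher (133 to 332) and its difference was 6.20. Reads of the transgene and of the cell's own Osr2 gene cannot be told apart. Osr1, its paralog, had 1.55 TPM (20 reads) in Osr2 cells and 18.03 TPM (296 reads) in control cells and differed by −0.028. Of the odd-skipped pair, Osr2 was past the size rule and Osr1 was not.

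The reads of the 4 vector factors may come from the virus or from the cell's own genes, which cannot be told apart. Klf4 had 362 TPM (6910 reads) in Osr2 cells, against 1687 TPM (40868 reads) in control cells, a difference of 1.29. Pou5f1 was lower, with 4.19 TPM (59 reads) in Osr2 cells and 101 TPM (1806 reads) in control cells and a difference of −1.06. Myc and Sox2 lay within the size rule at 0.92 and 0.73. The 4 factors of a single vector did not keep 1 ratio between the libraries, with a median of 0.82 that was −0.024 on total reads.

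Among the receptors and receptor Smads of the inhibited pathway, 3 of 9 measured members were higher and 0 lower, and they had a median of 0.51 that was −0.29 on total reads. Smad4, the partner of all receptor Smads, was the highest of them with 87.9 TPM (2042 reads) in Osr2 cells, against 125 TPM (3701 reads) in control cells, 7.997-fold higher (7.57 to 8.44). The type I receptors for TGF-β and activin, Tgfbr1 and Acvr1b, which are the kinases that SB431542 blocks, differed by −0.92 and −0.75. Smad3, a substrate of these kinases, differed by 0.30 and Tgfbr2, the type II receptor, by 0.41. These 4 genes, named after their values were seen, were all within the size rule.

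The 15 highest weighted entries held 10 genes of over 200 bases and 5 short entries with at most 16 reads in Osr2 cells. Ptx3 (chromosome 3, 66219887 to 66225806), a secreted pentraxin of innate immunity, had 1420.1 TPM (23830 reads) in Osr2 cells, against 145 TPM (3083 reads) in control cells. Relative to the median gene its reads were 112-fold higher (108 to 116). It was among 334 entries with more reads in the small Osr2 library than in the control library. Egr4 (chromosome 6, 85511121 to 85513589), an early growth response transcription factor, had 25.4 TPM (342 reads) in Osr2 cells, against 0.938 TPM (16 reads) in control cells, 309.8-fold higher (188 to 548). Ier5 (chromosome 1, 155096367 to 155099636), an immediate early protein that acts on heat shock factor, had 223 TPM (2290 reads) in Osr2 cells, against 45.6 TPM (593 reads) in control cells, 56.0-fold higher (51.1 to 61.4). All of these were also higher relative to genes of like GC content, at 6.997, 6.04 and 5.82.

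Ccn2 (chromosome 10, 24595442 to 24598683), a matricellular growth factor known as CTGF, had 59.1 TPM (1058 reads) in Osr2 cells, against 8.58 TPM (195 reads) in control cells, 78.6-fold higher (67.4 to 92.1). Gadd45g, a stress-response partner of p38 signalling, had 532 TPM (3902 reads) in Osr2 cells, against 127 TPM (1183 reads) in control cells, 47.8-fold higher (44.8 to 51.1). Igfbp7, a secreted protein that binds insulin-like growth factors, had 339 TPM (2568 reads) in Osr2 cells, against 81.2 TPM (780 reads) in control cells, 47.7-fold higher (44.0 to 51.8). In these 3 genes the deposited TPM itself was higher in Osr2 cells, so their direction does not rest on the scaling to the median gene. All 3 were named because they were among the highest weighted entries. Ccn2 reached the weighted level through the Osr2 library alone, so that level fixed its direction.

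Mir132, the gene of a microRNA that CREB induces in neurons, was among the highest entries with 38.7 TPM (16 reads) in Osr2 cells, against 3.81 TPM (2 reads) in control cells, but this entry counts short reads of a 66-base hairpin in a poly(A) library and says nothing of the mature microRNA. Its mature forms are shown because it was the only short RNA gene among the 15 highest weighted entries with reads in both libraries. The sequences are from RefSeq, GRCm38.p6, chromosome 11, with the seed, bases 2 to 8, in capitals.
mmu-miR-132-3p: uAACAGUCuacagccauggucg
mmu-miR-132-5p: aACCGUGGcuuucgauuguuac
The other short entries among the 15 highest, Mir5135, Mir7054, Mir6979 and LOC115490043, had at least 5, 3, 1 and 5 reads in Osr2 cells. They had 0 reads in control cells, and no fold is given for them. The count of Mir6979 was recovered at a length of 28 bases, shorter than the gene's annotated span, and is a lower limit. Of all 95 weighted entries under 200 bases, 33 were higher, 54 lower and 43 had 0 reads in Osr2 cells, with a median of 1 read in Osr2 cells and 27 in control cells.

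**Figure D3:**
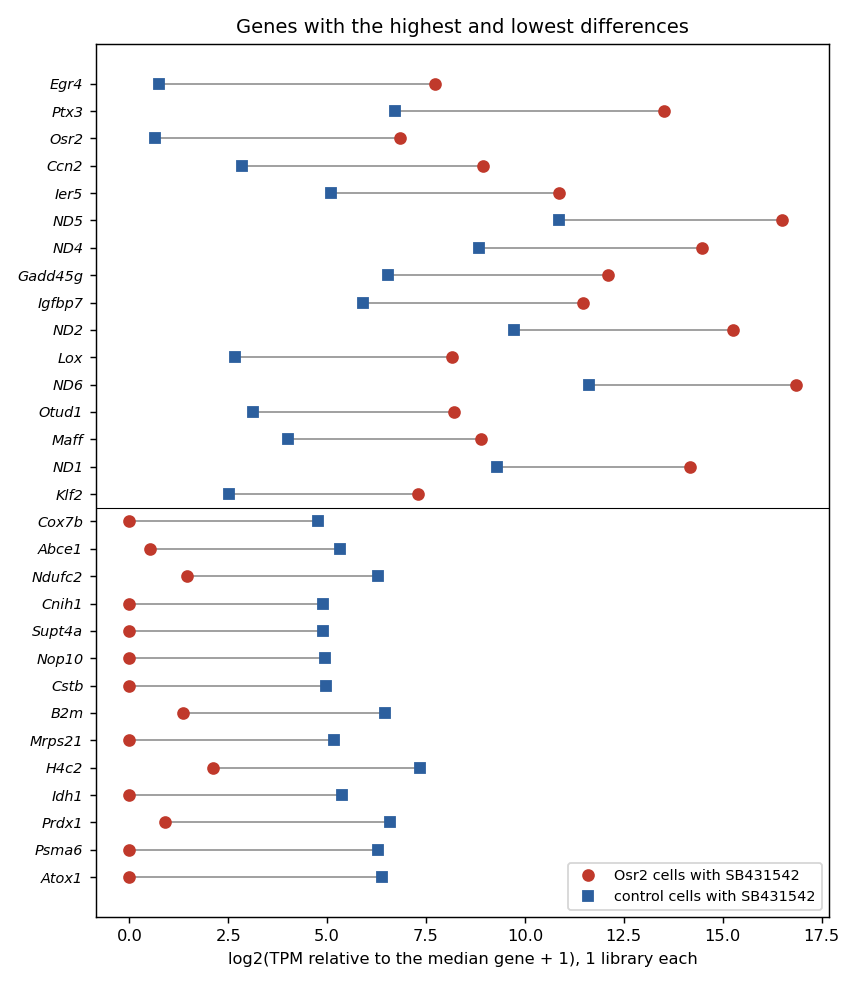
Levels, as log2(TPM relative to the median gene + 1), of the weighted entries of at least 200 bases with the 16 highest differences (upper block) and of the 14 protein-coding ones with the lowest (lower block). Red circles are Osr2 cells and blue squares control cells, 1 library each, and 9 of the 14 lower genes stand at 0 in Osr2 cells.

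Immediate early genes, which answer growth factors and stress within minutes, had the highest median of the signalling lists. Of 29 measured members 23 were higher and 0 lower, and the median was 2.41 (2.04 relative to genes of like GC content, −0.73 on TPM as deposited), beside −0.25 over all genes. Maff, a small Maf factor of stress responses, had 56.9 TPM (924 reads) in Osr2 cells, against 20.9 TPM (431 reads) in control cells, 31.1-fold higher (27.7 to 34.9). Klf2, a Krüppel-like factor of endothelial and naive pluripotent cells, had 18.95 TPM (219 reads) in Osr2 cells, against 6.47 TPM (95 reads) in control cells, 33.4-fold higher (26.1 to 43.0). Egr1, a growth factor-induced zinc-finger protein, had 30.8 TPM (863 reads) in Osr2 cells and 50.7 TPM (1806 reads) in control cells and differed by 2.76. Its deposited TPM was lower in Osr2 cells, and its difference is positive relative to the median gene.

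Feedback inhibitors and targets of the MAP kinase pathways were higher in 13 of 21 members, with 1 lower and a median of 1.59 (1.41 relative to genes of like GC content, −1.47 on TPM as deposited). Errfi1, which inhibits the EGF receptor, had 6.43 TPM (144 reads) in Osr2 cells, against 5.76 TPM (164 reads) in control cells, 12.7-fold higher (10.1 to 16.02). Spry1, a Sprouty inhibitor of receptor tyrosine kinase signalling, had 15.9 TPM (290 reads) in Osr2 cells, against 16.2 TPM (375 reads) in control cells, 11.2-fold higher (9.58 to 13.1). Spred1, a Sprouty-related inhibitor of Ras, differed by 2.53. Dusp1, a phosphatase that switches off p38 and JNK, had 12.3 TPM (254 reads) in Osr2 cells and 21.2 TPM (557 reads) in control cells, 6.61-fold higher (5.68 to 7.68). Etv5, an ERK-driven ETS factor and the only lower member, had 0.662 TPM (17 reads) in Osr2 cells and 24.1 TPM (784 reads) in control cells, 3.18-fold lower (1.97 to 5.49).

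NF-κB subunits, inhibitors and feedback genes numbered 18, of which 14 were higher and 1 lower, and their median was 2.13 (2.07 relative to genes of like GC content, −1.15 on TPM as deposited). NF-κB dimers are held in the cytoplasm by IκB proteins, and once free they induce the genes of their own inhibitors. Nfkbia (chromosome 12, 55489409 to 55492647), which encodes IκBα, had 103 TPM (1042 reads) in Osr2 cells, against 196 TPM (2501 reads) in control cells, 6.04-fold higher (5.61 to 6.49). Tnfaip2, a TNF-induced protein, had 79.9 TPM (2492 reads) in Osr2 cells, against 71.4 TPM (2829 reads) in control cells, 12.8-fold higher (12.1 to 13.5). Bcl3, a nuclear IκB protein, had 10.6 TPM (164 reads) in Osr2 cells and 12.7 TPM (250 reads) in control cells, and Icam1, an adhesion molecule for leukocytes, had 20.7 TPM (565 reads) in Osr2 cells and 37.5 TPM (1299 reads) in control cells, with differences of 3.12 and 2.61. Without SB431542 the median of the same members was −0.092, with 2 higher and 2 lower, and −0.86 after the treated reads were subtracted. The difference between these medians and that with SB431542 was not tested. Nfkbia, with 72.2 TPM (1632 reads) in Osr2 cells and 209 TPM (4899 reads) in control cells in the cultures without SB431542, had a difference of −0.73 there and of −2.98 after subtraction.

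The promoters of the NF-κB, immediate early and BMP lists were searched because most members of each were higher in Osr2 cells. A window of 300 bases, 250 before and 50 after the start site, was available for 13 of the 18 NF-κB genes in RefSeq (GRCm38.p6), and 10 of their 18 windows (55.6%) held the κB motif on either strand. The share was 4.51% over all 32851 windows, 5.26% over the windows of measured genes, 6.19% over those of weighted genes that were higher and 3.56% over those of weighted genes that were lower. Such a match is a description of letters, and the list was put together from known NF-κB targets. The stretches below, 160 bases before to 30 after the start site, show the motif in capitals in the promoters of Ptx3 and of Nfkbia, described above.
Ptx3 (chr3:66219727-66219916, plus strand): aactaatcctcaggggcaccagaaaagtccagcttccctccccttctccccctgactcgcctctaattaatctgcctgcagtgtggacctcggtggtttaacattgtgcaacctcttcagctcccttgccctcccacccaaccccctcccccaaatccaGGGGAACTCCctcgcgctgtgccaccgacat
Nfkbia (chr12:55492618-55492807, minus strand): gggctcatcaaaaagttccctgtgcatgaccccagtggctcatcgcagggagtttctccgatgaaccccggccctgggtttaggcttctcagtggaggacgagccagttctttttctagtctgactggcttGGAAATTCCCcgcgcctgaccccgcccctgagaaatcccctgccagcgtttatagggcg
The motif began 1 base before the start site in Ptx3 and 29 bases before it in Nfkbia. The cyclic AMP response element TGACGTCA, a palindrome, was in 1.79% of all windows and 3.06% of those of measured genes. Its share was 3.09% over windows of weighted higher genes, against 3.37% over those of weighted lower genes. The element began 143 bases before the start site in Dusp1, the MAP kinase phosphatase gene described above, where it is shown in capitals.
Dusp1 (chr17:26508443-26508632, minus strand): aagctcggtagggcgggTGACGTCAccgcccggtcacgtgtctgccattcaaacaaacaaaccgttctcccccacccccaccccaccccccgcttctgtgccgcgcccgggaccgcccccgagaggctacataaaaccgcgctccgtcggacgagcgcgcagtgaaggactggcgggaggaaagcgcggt
The AP-1 motif TGANTCA was in 4.23% of windows of weighted higher genes and 5.25% of windows of weighted lower genes. It was in 4.82% of windows of measured genes and in 2 of the 33 windows of the immediate early list.

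Genes induced through TGF-β and Smad3 numbered 35, of which 22 were higher and 6 lower with the inhibitor in both cultures, with a median of 1.80 (1.54 relative to genes of like GC content, −1.48 on TPM as deposited). In bulk RNA, fewer cells of a type and less RNA per cell cannot be told apart. The feedback inhibitor Smad7 had 32.03 TPM (906 reads) in Osr2 cells, against 14.5 TPM (521 reads) in control cells, 25.2-fold higher (22.6 to 28.1). Ccn1, the Cyr61 matricellular protein, had 80.0 TPM (1011 reads) in Osr2 cells, against 62.2 TPM (997 reads) in control cells, 14.7-fold higher (13.5 to 16.1). Ccn1 and Ccn2 are also counted among the YAP targets below, and Lox among the matrix genes, so these lists are not independent. At the lower end, Plod2, a lysyl hydroxylase that modifies collagen for cross-linking, had 0.119 TPM (4 reads) in Osr2 cells, against 24.8 TPM (1063 reads) in control cells, 18.3-fold lower (7.14 to 67.4).

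The BMP branch, which SB431542 largely spares, was shifted the same way. Of 25 measured ligands, receptors, antagonists and Id genes 19 were higher and 4 lower, and the median was 1.69 (2.06 relative to genes of like GC content, −1.05 on TPM as deposited). Smad6 (chromosome 9, 63953076 to 64022085), the inhibitory Smad of the BMP branch, had 12.7 TPM (255 reads) in Osr2 cells, against 4.20 TPM (107 reads) in control cells, 34.5-fold higher (27.5 to 43.7). Id3, a BMP-induced inhibitor of helix-loop-helix factors, had 60.4 TPM (677 reads) in Osr2 cells, against 44.5 TPM (633 reads) in control cells, 15.5-fold higher (13.9 to 17.3). The extracellular antagonists were also higher: Nog (noggin) with 5.37 TPM (57 reads) in Osr2 cells and 1.04 TPM (14 reads) in control cells, and Fst (follistatin, which binds activin) with 13.5 TPM (387 reads) in Osr2 cells and 7.02 TPM (256 reads) in control cells. Smad5, a receptor Smad of the branch, and Fstl1, a follistatin-like glycoprotein, were lower at −1.34 and −1.502. The lowest members, both below the weighted level, were Id2 and the receptor gene Bmpr1a, at −3.34 and −1.89. Id2 had 0 TPM (0 reads) in Osr2 cells and 12.5 TPM (243 reads) in control cells. Bmpr1a had 0.277 TPM (11 reads) in Osr2 cells and 15.5 TPM (781 reads) in control cells.

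The Smad6 promoter is shown because its window was the only 1 of 19 windows of the BMP list with GTCTAGAC, a palindrome that Smad3 and Smad4 bind. The palindrome was also in 1 of 18 windows of the NF-κB list, that of Tnfaip3. It stood in 0.213% of all windows, 0.254% of windows of measured genes, 0.226% of those of weighted higher genes and 0.0937% of those of weighted lower genes. In Smad6 it began 4 bases before the start site.
Smad6 (chr9:64022030-64022219, minus strand): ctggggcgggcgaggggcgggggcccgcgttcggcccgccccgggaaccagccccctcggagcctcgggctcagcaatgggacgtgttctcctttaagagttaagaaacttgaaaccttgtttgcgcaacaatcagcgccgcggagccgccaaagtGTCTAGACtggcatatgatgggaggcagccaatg
The motif GCTACTG, the core of the sequence that mouse odd-skipped factors bind in vitro, was searched on both strands. It was in 2.72% of windows of weighted higher genes, 4.03% of those of weighted lower genes, 3.17% of those of measured genes and 3.70% of all windows.

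Targets of YAP, TAZ and TEAD, the nuclear arm of mechanical signalling, numbered 20, with 14 higher and 1 lower, around a median of 1.59 (1.79 relative to genes of like GC content, −1.52 on TPM as deposited). Amotl2, a feedback inhibitor of YAP, had 57.4 TPM (2259 reads) in Osr2 cells, against 41.8 TPM (2088 reads) in control cells, 15.7-fold higher (14.8 to 16.7). Crim1, a transmembrane protein that binds BMPs, had 57.3 TPM (2151 reads) in Osr2 cells, against 50.6 TPM (2411 reads) in control cells, 12.9-fold higher (12.2 to 13.7). The TEAD motif GGAATG was in 12.5% of windows of weighted higher genes and 10.3% of windows of weighted lower genes, against 14.7% of all windows.

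The contractile list held opposite extremes. Of 24 members 13 were higher and 3 lower, around a median of 1.45 (1.34 relative to genes of like GC content, −1.55 on TPM as deposited). Tpm2, a tropomyosin, had 21.8 TPM in Osr2 cells and 21.9 TPM in control cells, Cald1 (caldesmon) differed by 3.27 and Myh9, the heavy chain of non-muscle myosin, by 2.75. The cytoplasmic actins went the other way. Actb had 70.0 TPM (1173 reads) in Osr2 cells and 2436 TPM (51850 reads) in control cells and Actg1 had 10.1 TPM (168 reads) in Osr2 cells and 262 TPM (5542 reads) in control cells, with differences of −1.61 and −1.18. Cnn3, a calponin that binds actin, had 0.263 TPM (5 reads) in Osr2 cells and 44.0 TPM (1062 reads) in control cells, 14.7-fold lower (6.26 to 45.2).

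Collagen genes numbered 21, with 19 higher and 0 lower, with a median of 2.45 (1.92 relative to genes of like GC content, −1.04 on TPM as deposited). Col7a1, the anchoring fibril collagen, had 14.8 TPM (954 reads) in Osr2 cells, against 5.05 TPM (413 reads) in control cells, 33.5-fold higher (29.8 to 37.7). The fibrillar Col5a1 had 138 TPM (7338 reads) in Osr2 cells, against 129.7 TPM (8750 reads) in control cells, 12.2-fold higher (11.8 to 12.5), and Col5a2 and the basement membrane chain Col4a5 differed by 3.58 and 3.74. The deposited TPM of these 4 collagens was itself higher in Osr2 cells, while that of the median gene was 11.4-fold lower. They were named as the highest weighted members, and over all 21 the median on TPM as deposited was −1.04. Col7a1 and Col4a5 reached the weighted level through the Osr2 library alone, so that level fixed their direction.

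The enzymes and other proteins of the matrix were less uniform than the collagens. Of 39 members 14 were higher and 8 lower, and the median was 0.30 (−0.53 on total reads and −2.30 on TPM as deposited). Lox, the lysyl oxidase that cross-links collagen and elastin, had 34.3 TPM (1026 reads) in Osr2 cells, against 7.35 TPM (279 reads) in control cells, 53.3-fold higher (46.6 to 61.1), and its relative Loxl1 differed by 2.47. Tnc, the wound matrix protein tenascin C, had 73.8 TPM (3590 reads) in Osr2 cells, against 96.4 TPM (5954 reads) in control cells, 8.74-fold higher (8.38 to 9.11). In contrast P4ha1, the catalytic chain of collagen prolyl hydroxylase, had 0.388 TPM (5 reads) in Osr2 cells and 33.1 TPM (541 reads) in control cells, 7.47-fold lower (3.18 to 23.1). Bgn, the small proteoglycan biglycan, had 0.550 TPM (21 reads) in Osr2 cells and 29.1 TPM (1409 reads) in control cells, 4.63-fold lower (3.02 to 7.502).

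Matrix proteases and their inhibitors numbered 22, of which 12 were higher and 3 lower, and the median was 1.5 (−1.48 on TPM as deposited). The inhibitors Timp2 and Timp1 had differences of 2.03 and 2.000, and Mmp14, a membrane-bound collagenase, had 6.73 TPM (251 reads) in Osr2 cells and 20.5 TPM (970 reads) in control cells, a difference of 1.84. Enzyme and inhibitor genes were higher side by side.

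**Figure D4:**
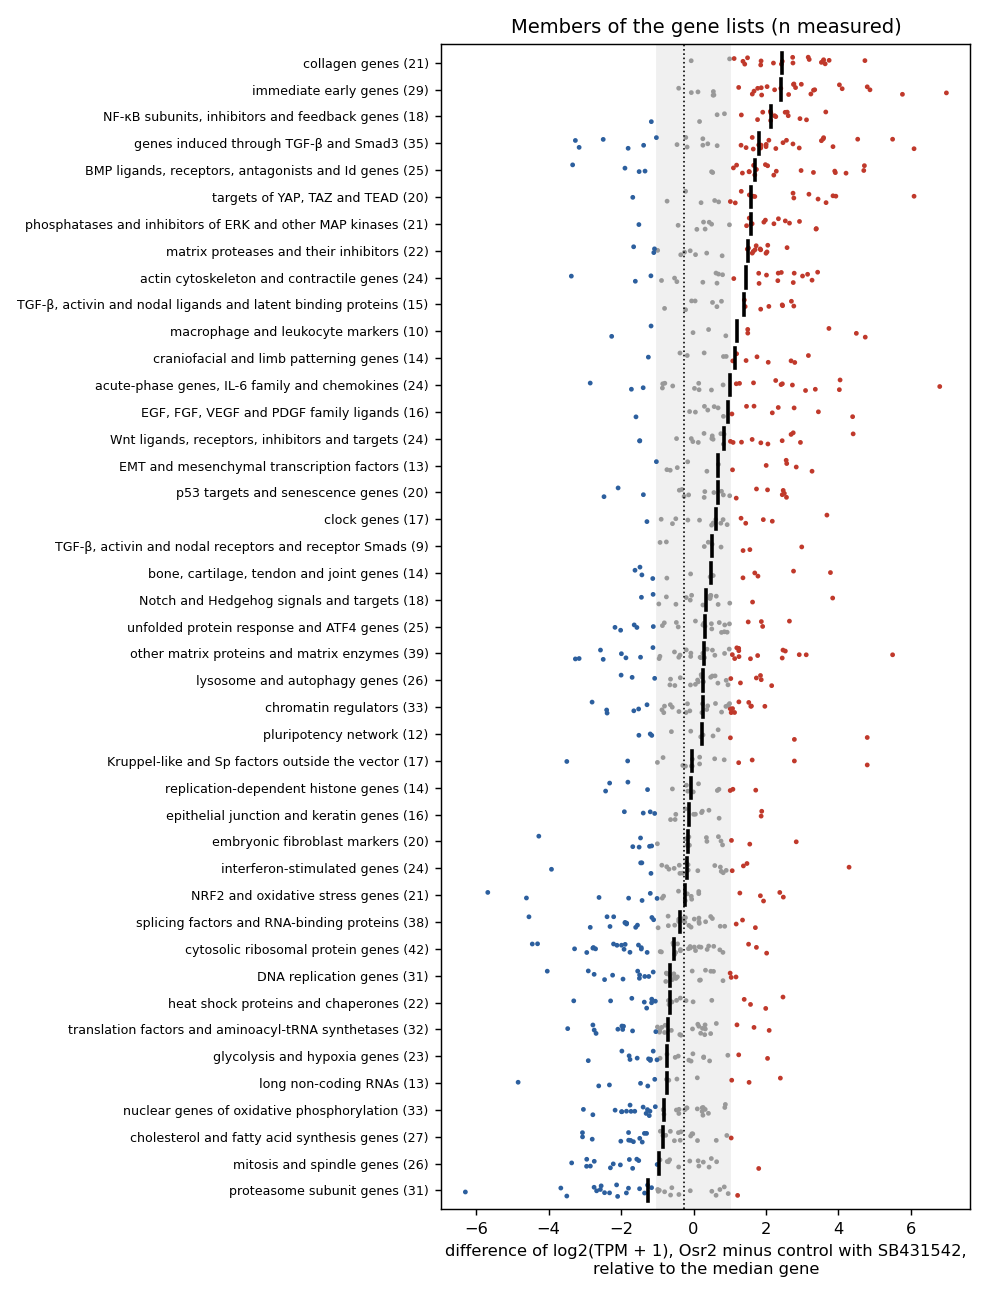
Difference of log2(TPM + 1), Osr2 minus control with SB431542, for each measured member of the gene lists reported here with at least 9 measured members, 1 point per gene (red at 1 or above, blue at −1 or below), with the list's median as a black bar and the median of all 13010 genes, −0.25, as a dotted line. Medians run from 2.45 for collagen genes to −1.27 for proteasome genes, and on TPM as deposited all the medians drawn lie below 0.

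Secreted signals were higher in several families. Of 15 TGF-β family ligands and latent binding proteins 8 were higher and 0 lower, around a median of 1.40 (0.49 relative to genes of like GC content, −1.22 on TPM as deposited). Inhbb, the βB chain of activin, had 12.1 TPM (321 reads) in Osr2 cells, against 19.1 TPM (644 reads) in control cells, 7.22-fold higher (6.30 to 8.27). Thbs1, the thrombospondin that activates latent TGF-β, had 77.4 TPM (2942 reads) in Osr2 cells, against 161 TPM (7767 reads) in control cells, 5.49-fold higher (5.26 to 5.73). Lrrc32, which holds latent TGF-β at the cell surface, had 7.16 TPM (105 reads) in Osr2 cells and 29.6 TPM (551 reads) in control cells, a difference of 1.42.

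Among ligands of tyrosine kinase receptors, 8 of 16 were higher and 1 lower, around a median of 0.94 (−1.52 on TPM as deposited). Bdnf, a neurotrophin, had 10.6 TPM (412 reads) in Osr2 cells, against 4.45 TPM (220 reads) in control cells, 27.1-fold higher (23.0 to 32.1). Vegfc, the lymphatic endothelial growth factor, had 7.77 TPM (119 reads) in Osr2 cells, against 6.89 TPM (134 reads) in control cells, 12.9-fold higher (9.97 to 16.6), and Pdgfa, a mitogen for mesenchymal cells, differed by 2.17. The GC content of the Bdnf transcript, 40.9%, lies in the decile of genes with a median of −0.76, and relative to those genes its difference was 5.15.

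Acute-phase genes and cytokines held extremes on both sides. The list had 12 higher and 3 lower of 24 members and a median of 1.00 (−1.34 on TPM as deposited). Cebpd and Cebpb, transcription factors of the acute-phase response, had 22.4 TPM (524 reads) in Osr2 cells and 14.2 TPM (422 reads) in control cells for Cebpd and 96.6 TPM (909 reads) in Osr2 cells and 106 TPM (1268 reads) in control cells for Cebpb, with differences of 4.04 and 3.36. Cxcl2, a neutrophil chemokine, had 15.5 TPM (200 reads) in Osr2 cells, against 9.56 TPM (157 reads) in control cells, 18.5-fold higher (14.9 to 22.9). Ccl2, the monocyte chemokine, was lower with 0.983 TPM (7 reads) in Osr2 cells and 89.6 TPM (810 reads) in control cells, 7.98-fold lower (3.86 to 19.9).

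Genes of the interferon response were also divided, with 4 higher and 4 lower among 24 measured, and a median of −0.17 that was 0.59 over members with at least 5 TPM in either library. Ifit1, an antiviral RNA-binding protein, had 57.5 TPM (956 reads) in Osr2 cells, against 32.2 TPM (680 reads) in control cells, 20.4-fold higher (18.4 to 22.5). Bst2 (tetherin) differed by 1.38. Ifitm2, a membrane protein against virus entry, had 0.244 TPM (1 read) in Osr2 cells and 61.7 TPM (321 reads) in control cells, a difference of −3.92, and its neighbour in the family Ifitm3 differed by −1.43. Reads of near-identical Ifitm copies may have been split by the counting.

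Patterning genes were examined because Osr2 acts in palate and limb development. Of 28 listed craniofacial and limb genes 14 were measured, 8 higher and 1 lower, with a median of 1.14 (−0.89 on TPM as deposited). Shox2, a homeobox factor of the palate and limb, was the only 1 of the higher members at the weighted level, with 5.31 TPM (110 reads) in Osr2 cells and 5.51 TPM (145 reads) in control cells, a difference of 3.17. Sox9, the factor of cartilage progenitors, had 8.16 TPM (211 reads) in Osr2 cells, against 5.51 TPM (181 reads) in control cells, 16.9-fold higher (13.8 to 20.7), while its bone, cartilage, tendon and joint list had 5 higher and 4 lower of 14 and a median of 0.48 (−0.23 on total reads). Both Shox2 and Sox9 reached the weighted level through the Osr2 library alone, so that level fixed their direction.

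Wnt genes numbered 24, of which 11 were higher and 2 lower, around a median of 0.83 (−1.76 on TPM as deposited). Nkd2, an inhibitor of Dishevelled, had 12.6 TPM (379 reads) in Osr2 cells and 17.3 TPM (665 reads) in control cells, a difference of 2.95, and the receptor Fzd7 differed by 2.05. Notch and Hedgehog genes were mostly within the size rule, 14 of 18, with a median of 0.36 (−0.38 on total reads). Dlk1, an imprinted Notch-related protein of progenitor cells, had 19.6 TPM (693 reads) in Osr2 cells, against 14.3 TPM (644 reads) in control cells, 15.6-fold higher (13.99 to 17.4), and Smo, the Hedgehog signal transducer, differed by 1.63.

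Mesenchymal transcription factors numbered 13, of which 6 were higher and 1 lower, around a median of 0.69 (−0.13 on total reads). Prrx2, a limb mesenchyme homeobox factor, had 7.01 TPM (86 reads) in Osr2 cells and 7.06 TPM (110 reads) in control cells, a difference of 3.27. Twist1, which represses E-cadherin, differed by 2.83, and Foxc1, a forkhead factor of mesenchyme, by 2.57. Both Prrx2 and Foxc1 reached the weighted level through the Osr2 library alone, so that level fixed their direction. Embryonic fibroblast markers, which check the labelled cell type, had reads in both libraries for 18 of the 20 measured, and the list had 3 higher and 6 lower members and a median of −0.15. The members without a read in Osr2 cells were S100a4 and Nt5e, an ectonucleotidase. Thy1, a fibroblast surface protein, had 10.8 TPM (203 reads) in Osr2 cells, against 59.2 TPM (1408 reads) in control cells, which relative to the median gene is 2.09-fold higher (1.79 to 2.42). S100a4, a calcium-binding protein also called Fsp1, had 0 TPM (0 reads) in Osr2 cells, against 25.2 TPM (117 reads) in control cells.

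The pluripotency network was little represented, with 12 of 28 genes measured, 3 higher, 3 lower and a median of 0.23 (−0.46 on total reads). Besides Klf2, the Krüppel-like factor Klf5 was higher with 9.68 TPM (315 reads) in Osr2 cells and 14.9 TPM (615 reads) in control cells, 7.42-fold higher (6.46 to 8.52). Tdh, an enzyme of threonine breakdown that mouse embryonic stem cells depend on, was lower with 0.795 TPM (13 reads) in Osr2 cells and 28.4 TPM (589 reads) in control cells, 3.13-fold lower (1.81 to 5.91). Epithelial junction and keratin genes counted 16 measured members, 2 of them higher and 4 lower, and had a median of −0.11, and no lower or higher member reached the weighted level.

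At the other end of the lists stood genes of protein turnover and respiration. Proteasome subunit genes had the lowest median of all lists, −1.27 (−1.07 relative to genes of like GC content), with 17 lower and 1 higher of 31. Psma6, an α subunit of the core ring, had 0 TPM (0 reads) in Osr2 cells, against 107 TPM (1049 reads) in control cells. The related Psma2 and Psma5 had 0.131 TPM (3 reads) in Osr2 cells and 34.95 TPM (1020 reads) in control cells for Psma2 and 0.484 TPM (4 reads) in Osr2 cells and 76.6 TPM (804 reads) in control cells for Psma5, with differences of −3.66 and −3.50. Psmc3, an ATPase of the cap, was the only higher member with 32.4 TPM (528 reads) in Osr2 cells and 158 TPM (3278 reads) in control cells, a difference of 1.22.

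Subunits of the same particle were spread more widely with SB431542 than without it. Over the proteasome genes the standard deviation of the differences was 1.61 with SB431542 and 0.26 without it (0.50 after the treated reads are taken out of the untreated columns). Over cytosolic ribosomal protein genes it was 1.501 with SB431542 and 0.28 without it (0.47 after subtraction). These standard deviations are over genes, not samples. The Osr2 library with SB431542 was also the shallowest of the 4, and the part of depth in this spread was not tested.

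**Figure D5:**
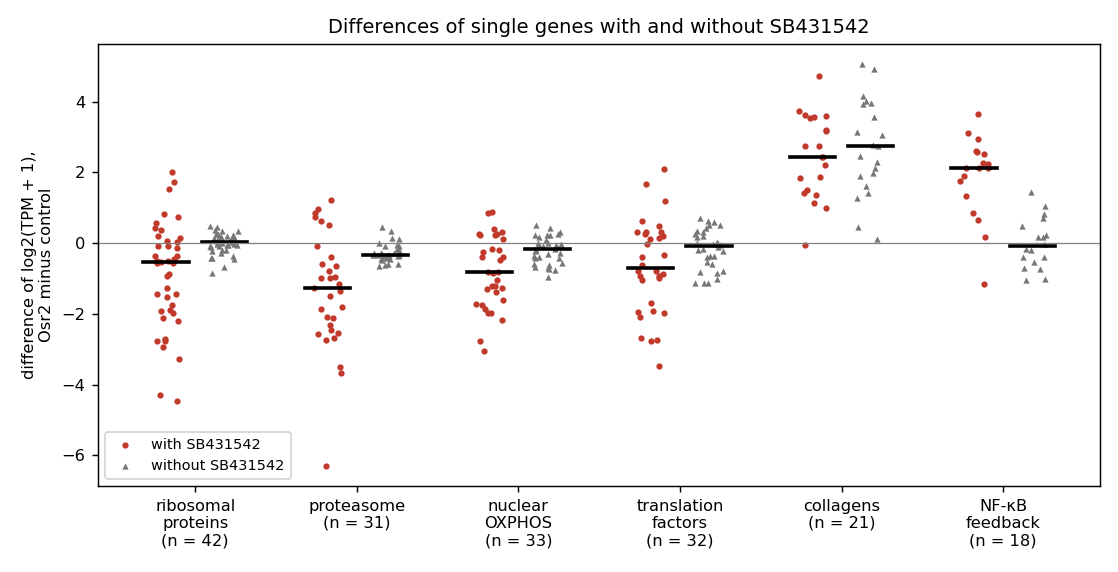
Difference of log2(TPM + 1), Osr2 minus control, of single genes in 6 lists with SB431542 (red circles, left) and without it (grey triangles, right), with medians as black bars and n the measured members. Proteasome genes run from −6.30 to 1.22 with SB431542 and from −0.66 to 0.46 without it, and collagen medians are 2.45 with and 2.74 without it, the value with SB431542 being −1.04 on TPM as deposited.

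Ribosomal protein genes counted 42 measured members, 17 of them lower and 3 higher, and had a median of −0.54. Rps4x, a small-subunit protein encoded on the X chromosome, had 2.74 TPM (28 reads) in Osr2 cells, against 645 TPM (8358 reads) in control cells, 20.6-fold lower (14.2 to 31.0). Rpl30 had 0.0529 TPM (1 read) in Osr2 cells, against 42.0 TPM (1007 reads) in control cells, and Rpl13a had 0.756 TPM (5 reads) in Osr2 cells and 96.1 TPM (807 reads) in control cells, a difference of −3.28. Rpsa, the laminin receptor protein of the small subunit, was higher with 208 TPM (4128 reads) in Osr2 cells and 586 TPM (14759 reads) in control cells, 4.05-fold higher (3.92 to 4.20). Most ribosomal protein genes have processed pseudogenes of near-identical sequence, so their reads may have been split by the counting.

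Translation factors and tRNA synthetases had 10 lower and 3 higher of 32 and a median of −0.70, beside 29.0% lower and 19.9% higher of all measured genes. Eef1a1, which brings aminoacyl-tRNA to the ribosome, had 54.5 TPM (850 reads) in Osr2 cells, against 4023 TPM (79676 reads) in control cells, 6.47-fold lower (6.04 to 6.93). Eif1a, an initiation factor, had 0.230 TPM (6 reads) in Osr2 cells and 43.1 TPM (1427 reads) in control cells, a difference of −3.47. Eif5 and Eif3a, which also act in initiation, were higher, with 36.1 TPM (1539 reads) in Osr2 cells and 95.8 TPM (5193 reads) in control cells for Eif5 and 44.2 TPM (2413 reads) in Osr2 cells and 158 TPM (10938 reads) in control cells for Eif3a, differences of 2.09 and 1.67.

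Nuclear genes of oxidative phosphorylation counted 33 measured members, 15 of them lower and 0 higher, and had a median of −0.83 (−0.61 relative to genes of like GC content). The ATP synthase genes Atp5c1 and Atp5o had 0.838 TPM (10 reads) in Osr2 cells and 88.6 TPM (1343 reads) in control cells for Atp5c1 and 0.892 TPM (11 reads) in Osr2 cells and 77.9 TPM (1221 reads) in control cells for Atp5o, differences of −3.04 and −2.78. Genes of the mitochondrial genome encode other subunits of oxidative phosphorylation. Of 13 listed, 8 were measured and all 8 were higher, with a median of 5.04 (1.53 on TPM as deposited). The rest were under 1 TPM in both libraries, so these values cover only a part of that genome. ND5, a complex I subunit, had 11145 TPM (127189 reads) in Osr2 cells, against 2547 TPM (36911 reads) in control cells, 49.9-fold higher (49.4 to 50.5). ND4 and ND2 differed by 5.63 and 5.51, ND6 by 5.22 and the smallest difference was 3.08. ND5 and ND6 lie next to each other on opposite strands, and whether the counting used strand is not given in the sources used here.

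Redox genes held some of the widest contrasts. Of 21 NRF2 and oxidative stress genes 5 were higher and 7 lower, around a median of −0.23, beside 19.9% higher and 29.0% lower of all measured genes. Prdx1 (chromosome 4, 116685599 to 116700000), a peroxiredoxin, had 0.105 TPM (2 reads) in Osr2 cells, against 131 TPM (3158 reads) in control cells, 109-fold lower (30.1 to 900.0). Mt2, a metallothionein, had 0 TPM (0 reads) in Osr2 cells, against 32.3 TPM (151 reads) in control cells. G6pdx, the entry enzyme of the pentose phosphate pathway, differed by −2.61. In the same list Sod1, the cytosolic superoxide dismutase, had 32.2 TPM (400 reads) in Osr2 cells and 101 TPM (1599 reads) in control cells, 3.63-fold higher (3.24 to 4.05), and the ferritin chains Fth1 and Ftl1 differed by 2.48 and 1.93.

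Atox1 (chromosome 11, 55446637 to 55461208), the copper chaperone, had 0 TPM (0 reads) in Osr2 cells, against 115 TPM (493 reads) in control cells. It has a GC content of 59.3%, in the decile of genes whose median was 0.93, and its difference of −6.40 became −7.33 relative to genes of like GC content. Idh1, the cytosolic isocitrate dehydrogenase, had 0 TPM (0 reads) in Osr2 cells, against 56.0 TPM (1233 reads) in control cells.

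Chaperone genes numbered 22, of which 8 were lower and 4 higher, with a median of −0.66, beside 29.0% lower and 19.9% higher of all measured genes. Hspa8, the constitutive HSP70, had 10.2 TPM (275 reads) in Osr2 cells, against 576 TPM (19670 reads) in control cells, 4.93-fold lower (4.38 to 5.58). Cct8, a subunit of the chaperonin that folds actin and tubulin, had 1.76 TPM (34 reads) in Osr2 cells and 211 TPM (5176 reads) in control cells, 10.5-fold lower (7.51 to 15.2), and the mitochondrial chaperonin Hspd1 differed by −1.70. Cryab, a small heat shock protein, was higher at 1.40.

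Metabolic enzyme lists held more lower than higher members, beside 29.0% lower and 19.9% higher of all measured genes. Glycolysis and hypoxia genes had 10 lower and 2 higher of 23 with a median of −0.73. Aldoa, the muscle-type aldolase, had 9.88 TPM (180 reads) in Osr2 cells, against 384 TPM (8876 reads) in control cells, 3.40-fold lower (2.94 to 3.97), while Egln1, the oxygen-sensing prolyl hydroxylase, was higher with 24.8 TPM (558 reads) in Osr2 cells and 67.7 TPM (1934 reads) in control cells. Cholesterol and fatty acid synthesis genes had 12 lower and 1 higher of 27 with a median of −0.84. The desaturases Scd2 and Scd1 had 3.69 TPM (126 reads) in Osr2 cells and 362 TPM (15735 reads) in control cells for Scd2 and 1.73 TPM (53 reads) in Osr2 cells and 83.6 TPM (3250 reads) in control cells for Scd1, differences of −3.07 and −2.01.

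Cell cycle lists held more lower than higher members, as did all measured genes, with 29.0% lower and 19.9% higher. Of 31 DNA replication genes 12 were lower and 3 higher, with a median of −0.65. Pcna, the sliding clamp, had 0.333 TPM (5 reads) in Osr2 cells, against 83.6 TPM (1595 reads) in control cells, 22.01-fold lower (9.41 to 67.9), and Mcm7, a helicase subunit, differed by −2.23. Of 26 mitosis genes 13 were lower and 1 higher, with a median of −0.96 (−0.63 relative to genes of like GC content). Ccnb2 and Ccnb1, the B-type cyclins, had 0.104 TPM (1 read) in Osr2 cells and 25.1 TPM (305 reads) in control cells for Ccnb2 and 0.417 TPM (11 reads) in Osr2 cells and 27.1 TPM (909 reads) in control cells for Ccnb1. Kif11, the spindle motor, was the exception with 7.18 TPM (335 reads) in Osr2 cells and 22.6 TPM (1338 reads) in control cells, 3.63-fold higher (3.21 to 4.09).

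Genes of growth arrest held more higher than lower members. Of 20 p53 and senescence genes 7 were higher and 3 lower, and their median was 0.67 (−0.17 on total reads). Cdkn2b, the p15 inhibitor of cyclin D kinases that TGF-β induces, had 38.2 TPM (332 reads) in Osr2 cells, against 72.5 TPM (801 reads) in control cells, 6.01-fold higher (5.27 to 6.84). Gadd45a and Phlda3, p53 targets, differed by 2.51 and 2.47. Trp53 itself was lower with 3.36 TPM (85 reads) in Osr2 cells and 102 TPM (3289 reads) in control cells, 2.67-fold lower (2.15 to 3.35).

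Splicing factors numbered 38, of which 13 were lower and 3 higher, beside 29.0% lower and 19.9% higher of all measured genes. Their median of −0.37 became −0.12 relative to genes of like GC content, the list's transcripts being GC-poor with a median of 44.4%. Hnrnpf, an RNA-binding protein of splice sites, had 0 TPM (0 reads) in Osr2 cells, against 30.7 TPM (744 reads) in control cells. Hnrnpu, a nuclear RNA-binding protein, was higher with 41.4 TPM (3004 reads) in Osr2 cells and 144 TPM (13256 reads) in control cells, 3.28-fold higher (3.16 to 3.42). Chromatin regulators were mostly within the size rule, 18 of 33, with 9 higher and 6 lower and a median of 0.25 that was −0.47 on total reads. The acetyltransferases Ep300 and Crebbp differed by 1.97 and 1.60, while the DNA demethylase Tet2 had 0.189 TPM (20 reads) in Osr2 cells and 23.3 TPM (3121 reads) in control cells, 10.8-fold lower (6.96 to 17.7).

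Among long non-coding RNAs 3 of 13 were higher and 6 lower. H19, an imprinted RNA of embryonic tissue, had 41.8 TPM (322 reads) in Osr2 cells and 89.6 TPM (876 reads) in control cells, 5.33-fold higher (4.67 to 6.06). Snhg5, a snoRNA host, had 0 TPM (0 reads) in Osr2 cells, against 38.1 TPM (262 reads) in control cells. Replication-dependent histone genes, whose messages mostly lack a poly(A) tail, numbered 14, of which 3 were higher and 4 lower. The linker histone H1f2 had 257 TPM (2512 reads) in Osr2 cells and 893 TPM (11069 reads) in control cells and the core histone gene H4c2 had 0.403 TPM (1 read) in Osr2 cells and 225 TPM (709 reads) in control cells, differences of 1.72 and −5.24. The H4 genes encode 1 protein from near-identical copies, and their reads may have been split.

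Smaller groups held single genes with wide differences. Bhlhe41, a repressor of the clock, had 7.25 TPM (305 reads) in Osr2 cells, against 5.19 TPM (277 reads) in control cells, 15.96-fold higher (13.5 to 18.8), and Cry1 differed by 1.92. Of 17 clock genes 11 were within the size rule, and the median was 0.61 (−0.053 on total reads). The lysosome and autophagy list had 6 higher and 3 lower of 26 and a median of 0.25 (−0.50 on total reads). In it Neu1, a sialidase, was at 2.16, the autophagy receptor Sqstm1 at 1.73 and Npc2, a sterol carrier, at −1.999. Unfolded protein and ATF4 genes had 4 higher and 5 lower of 25 and a median of 0.32 (−0.50 on total reads), with Atf5, a stress-induced factor, at 1.91 and Asns, asparagine synthetase, at −2.01. Outside the vector, 11 of 17 Krüppel-like and Sp factors were within the size rule, and Klf8, a zinc-finger repressor on the X chromosome, had 0.0921 TPM (3 reads) in Osr2 cells and 26.1 TPM (1078 reads) in control cells, 24.8-fold lower (8.46 to 120.4).

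Markers of other cell types that an embryonic fibroblast culture could hold were measured in part of each list. Macrophage and leukocyte markers were measured in 10 of 17 genes and summed to 19.2 TPM in Osr2 cells and 36.4 TPM in control cells, with 5 higher and 2 lower and a median of 1.19 (−1.06 on TPM as deposited). C1qb, a complement gene of macrophages, had 10.1 TPM (69 reads) in Osr2 cells, against 3.01 TPM (26 reads) in control cells, 38.5-fold higher (24.2 to 62.9), whereas Fcer1g, the Fc receptor γ chain, had 0 reads in Osr2 cells. The weighted level, which C1qb reached through the Osr2 library alone, fixed its direction. All sums in this paragraph are of TPM as deposited, on which the median gene was 11.4-fold lower in Osr2 cells. The measured endothelial markers summed to 3.39 TPM in Osr2 cells and 21.5 TPM in control cells over 4 of 14 genes, with Cldn5 at 0 reads in Osr2 cells. Relative to the median gene 2 endothelial markers counted as higher and 1 as lower. Their median difference was 0.17 (−0.18 on total reads). Neural markers summed to 11.1 TPM in Osr2 cells and 216 TPM in control cells over 5 of 12 genes, with 1 higher and 2 lower and a median of −0.92. Tubb3, a neuronal tubulin, had 2.99 TPM (35 reads) in Osr2 cells and 147 TPM (2189 reads) in control cells, and the neurogenic factor Neurog2 had 0 reads in Osr2 cells. Adipocyte markers summed to 8.32 TPM in Osr2 cells and 50.7 TPM in control cells over 4 of 10 genes. Of these 4, 2 counted as higher and 0 as lower, and the median difference was 0.96 (−0.85 on TPM as deposited). Trophoblast genes summed to 16.8 TPM in Osr2 cells and 359 TPM in control cells over 7 of 12. Most of it was the imprinted gene Peg10 with 10.5 TPM (439 reads) in Osr2 cells and 296 TPM (15688 reads) in control cells. Among the 7 trophoblast genes 2 counted as higher and 1 as lower, and the median difference was 0.25 (−0.28 on total reads). Of 13 muscle markers 0 reached 1 TPM in either library. Within the macrophage list C1qb had the highest difference, 4.74, and Lyz2, a lysozyme of the same cells, was lower at −2.26. Over members with at least 5 TPM in either library the median of that list was −0.015. The part of other cell types in the results was not tested.

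The genes without a read in Osr2 cells that had most reads in control cells were Idh1, Psma6 and Hnrnpf, given above, and 7 others. Control cells had 1086 reads of Eif2s3x, an initiation factor subunit encoded on the X chromosome, and 816 reads of the entry LOC115487690. They had 795 reads of Cip2a, an inhibitor of a protein phosphatase, and 776 reads of Kif4, a chromosome-bound kinesin. They had 777 reads of Mff, a mitochondrial fission factor, 766 of Pclaf, which binds PCNA, and 656 of Npat, an activator of histone genes. For each of these the median gene's ratio of reads would give at least 20 reads in Osr2 cells.

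Of the 15 lowest weighted entries 10 were under 200 bases, among them the Y RNA Rny3 and the snoRNAs Snora23, Snord53 and Snord49a. Osr2 cells had 0 reads of each of these 10, and control cells had between 33 and 816. The other 5 were the genes Atox1, Psma6, Prdx1, Idh1 and H4c2. LOC115487690, an entry of 191 bases that is only a locus number in the files, had 0 TPM (0 reads) in Osr2 cells, against 538 TPM (816 reads) in control cells, the lowest difference of all weighted entries at −8.61.

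Cells grown without SB431542 gave the same contrast a second pair of libraries, but its columns hold at least as many reads as the treated columns for every entry, and the treated reads come to 11.5% of the untreated ones in Osr2 cells and 73.1% in control cells. The comparisons may therefore share reads, and their values are set side by side without a test. Over the same 13010 genes, 14.2% were higher and 11.6% lower without SB431542, or 9.74% and 7.30% after the treated reads were taken out.

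Egr4 had 342 reads in Osr2 cells with SB431542 and 342 in the column without it, so after subtraction none is left there. Its difference was 6.98 with SB431542, against 3.21 without it and −0.79 after subtraction. Ptx3 likewise had 6.79 with SB431542, against 2.51 without it and −2.64 after subtraction.

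Lists took different courses across these comparisons. Collagen genes had a median of 2.45 with SB431542, against 2.74 without it and 1.39 after subtraction. The other matrix genes had 0.30 with SB431542, against 2.79 without it and 2.24 after subtraction. Embryonic fibroblast markers had −0.15 with SB431542, against 1.82 without it and 1.34 after subtraction. Collagens were thus above the median gene in each, whereas the other matrix genes and fibroblast markers lay near it with SB431542, and on TPM as deposited the medians of these 3 lists with SB431542 were below 0. Immediate early genes had 2.41 with SB431542, against 1.02 without it and 0.11 after subtraction. The 8 measured genes of the mitochondrial genome had 5.04, 0.66 and −3.19 in that order. DNA replication genes had −0.65 with SB431542, against −1.10 without it and −0.98 after subtraction.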

How the data were processed

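RNA of 4 mouse fibroblast cultures was measured by RNA-seq, 1 library each, and 2 of them are compared here. Reads were aligned with STAR 2.7.3a and counted with featureCounts 2.0.0 on GRCm38.p6 with an Ensembl gene model, per the series design text. Entries such as LOC115487043 and ND5 matched RefSeq by name, and the gene model behind the counts was not checked. The authors deposited gene values as TPM, per the series design text. From these TPM values whole reads per entry were recovered (18787 of 18787 entries whole within 0.001), giving totals that are lower limits. The same entries were read in all libraries; 26 entries that a spreadsheet had turned into dates and 469 that share 140 symbols were left out, and 4 value columns of another deposited table that could not be matched to samples were not used.

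To set libraries to their median gene, the median over 7867 genes (mean of at least 5 TPM) of the ratio to untreated control cells was divided out, and differences were taken of log2(TPM + 1). GC content and biotype came from GENCODE M21 and promoters and miRNAs from RefSeq (python 3.11.15, numpy 2.4.6, pandas 2.3.3, scipy 1.17.1, matplotlib 3.10.9). The calculation was tested on simulated data. With 1 library a group there is no test, and reads without molecular identifiers give intervals that cover counting error only.

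Members, gene lists and rules were chosen with earlier results of these data known. Genes named are Osr2, Osr1, the vector factors, the 15 highest and 15 lowest weighted entries, up to 4 higher and 3 lower weighted members of each list, the 10 genes at 0 reads with most control reads and the 5 widest contrasts with the cells without SB431542. Any other gene named was chosen after its value was seen. Alternatives were other pseudocounts, filters, scalings, GC centring and means in place of medians. A further gene list is not reported here.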

Additional observations from a re-analysis of the deposited data

Results flagged for a closer look

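In 10 named genes the difference between Osr2 and control cells had opposite signs in the cultures with and without SB431542, past the size rule in both, also after the treated reads were taken out of the untreated columns. Whether the differences with and without SB431542 differ was not tested, since there is 1 library of each kind. Values are log2 differences, Osr2 minus control.

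Of these genes, 8 were lower with SB431542 and higher without it. S100a4, a calcium-binding protein of fibroblasts, had −4.27 with SB431542, against 2.09 without it (2.06 after subtraction). Bgn (biglycan) had −1.99 with SB431542, against 4.54 without it (4.27 after subtraction). P4ha1, of collagen prolyl hydroxylase, had −2.57 with SB431542, against 1.64 without it (2.06 after subtraction). The glycoprotein gene Fstl1 had −1.502 with SB431542, against 1.89 without it (1.95 after subtraction). Ly6a, the Sca-1 surface antigen, had −1.21 with SB431542 (−0.79 relative to genes of like GC content), against 2.84 without it (3.04 after subtraction). The antiviral gene Ifitm3 had −1.43 with SB431542, against 2.12 without it (1.95 after subtraction). Npc2, a lysosomal sterol carrier, had −1.999 with SB431542, against 1.09 without it (1.26 after subtraction). Actg1, a cytoplasmic actin, had −1.18 with SB431542, against 1.18 without it (1.39 after subtraction).

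The other 2 were higher with SB431542 and lower without it. Cdt1, a replication licensing factor, had 1.04 with SB431542, against −1.08 without it (−1.96 after subtraction). Relative to genes of like GC content its value with SB431542 was 0.11, within the size rule. The histone gene H2ac6, which has no GC value, had 1.01 with SB431542, against −1.06 without it (−1.36 after subtraction).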

How the results depend on the processing

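No paired analysis was possible because each group has 1 library. The counts of higher and lower genes depended on scale: a pseudocount of 5 gave 1524 lower genes, the limit of 20 TPM in control cells or 5 TPM in Osr2 cells gave 1332 higher and 1177 lower, total recovered reads gave 1179 higher and 5834 lower with a median-gene shift of −2.67, and TPM as deposited gave 47 higher and 11900 lower. On TPM as deposited these list medians turned below 0: TGF-β ligands −1.22, TGF-β targets −1.48, BMP genes −1.05, immediate early genes −0.73, MAP kinase feedback −1.47, YAP targets −1.52, contractile genes −1.55, collagens −1.04, proteases −1.48, NF-κB feedback −1.15, patterning genes −0.89 and macrophage markers −1.06, and with at least 5 TPM in either library macrophage markers had −0.015. Under scaling to a trimmed mean and to the median gene of the treated libraries, 218 of 218 named gene values moved by less than 0.5. On total recovered reads 187 of the 218 moved by at least that much. With a pseudocount of 5 it was 72 of them, and with a pseudocount of 0.1 it was 38. Relative to genes of like GC content 77 named gene values moved by at least 0.5 and 123 did not. Depth limits low genes: 1811 measured genes had 0 reads in Osr2 cells, where 1 read in 1 kb is worth 1.32 TPM relative to the median gene, so low genes cannot be read as absent.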
